A study of Mus musculus with 6 samples.

Results

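Integrins, laminins and nidogens were examined in the cochlear sensory epithelium (organ of Corti) of mice that lack pejvakin and of wild-type mice. Members were all probe sets whose single platform gene symbol names an integrin alpha or beta chain, a laminin alpha, beta or gamma chain, or a nidogen. This gave 40 probe sets for 39 genes, out of 21789 probe sets with a single symbol for 19938 genes. They comprised 28 integrin probe sets for 27 genes, 10 laminin probe sets and 2 nidogen probe sets, and Itgad was the gene with 2 probe sets. The arrays came from 3 samples with the genotype Pjvk-/- (knockout) and 3 samples with the genotype Pjvk+/+ (wild-type). All were taken at postnatal day 15, and both genotypes shared the mixed background C57BL/6J-129/Sv. Pejvakin, the product of Pjvk, belongs to the gasdermin family and is required for hearing. The labels do not say whether a sample came from 1 animal or from several, and the p-values therefore reflect how these samples scatter, which may be technical alone.

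Integrins are transmembrane receptors made of an alpha and a beta chain that hold cells to the extracellular matrix and signal in both directions across the membrane. Laminins are trimers of an alpha, a beta and a gamma chain that polymerise into basement membranes, and nidogens link the laminin network to collagen IV. In the cochlea, basement membranes underlie the sensory epithelium on the basilar membrane and surround the vessels of the stria vascularis, and Schwann cells of the auditory nerve carry one as well. In mouse, the integrin made of the Itga8 and Itgb1 chains is known at the apical surface of developing hair cells.

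The deposited values were log2 signals, with array medians between 6.66 and 6.69. Signals of different probe sets also reflect how well their probes bind, so no gene's level is set against another's. Olfactory receptor genes, which the cochlea is not expected to use, served as a guide to dim signal, and the 95th percentile of their 1035 probe sets was 5.99. All 10 hair cell markers and all 10 supporting cell markers lay above it. The Y-linked level (the mean of Kdm5d, Uty and Eif2s3y) was 7.58, 7.51 and 7.39 in the knockout arrays, against 8.05, 7.86 and 7.65 in the wild-type arrays. It did not overlap between genotypes, so a fit with it as a covariate cannot well tell its effect from that of genotype. Values of named genes from that fit are given where the direction turns. In that fit 0 of all 21789 probe sets were called, and the smallest adjusted p of a member was 0.908 (limma, Benjamini-Hochberg).

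No integrin, laminin or nidogen probe set differed between the genotypes by the adjusted test. At an adjusted p under 0.05 (limma, Benjamini-Hochberg over all 21789 probe sets), 0 of 40 members were called, against 7 probe sets or 0.0321% of the table, all of them lower in the knockout. The smallest adjusted p of a member was 0.261. At an unadjusted p under 0.05 were 5 members, which is 12.5% of them against 12.4% of all probe sets. Of these, 2 were higher and 3 lower, against 5.69% higher and 6.74% lower over all probe sets. The 3 knockout values and the 3 wild-type values did not overlap for 6 members, or 15% of them, against 17.8% of all probe sets. The knockout lay above for 3 members and below for 3, against 6.51% above and 11.3% below over all probe sets. The shares of called and separate members were near those of the table as a whole.

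The differences were small, and the intervals bound them. A log2 difference of a member ran from -0.26 to 0.23, with a median of 0.02 against -0.01 over all probe sets, and 24 members were higher and 16 lower in the knockout. The lower share was 40% of members, against 54.1% of all probe sets. With the Y-linked covariate, 16 were higher and 24 lower and the median was -0.04, and without wild-type replicate 1 the median was -0.01. Standard errors (SE) of the members ran from 0.05 to 0.13. The 95% interval of every one of the 40 members lay within a 1.5-fold difference in either direction, as did that of 21552 of all 21789 probe sets. For 26 members, among them all 10 laminin probe sets and both nidogens, it lay within 1.2-fold, as it did for 13260 of all 21789 probe sets. These intervals hold for 1 probe set at a time and were not adjusted for their number.

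**Figure D1:**
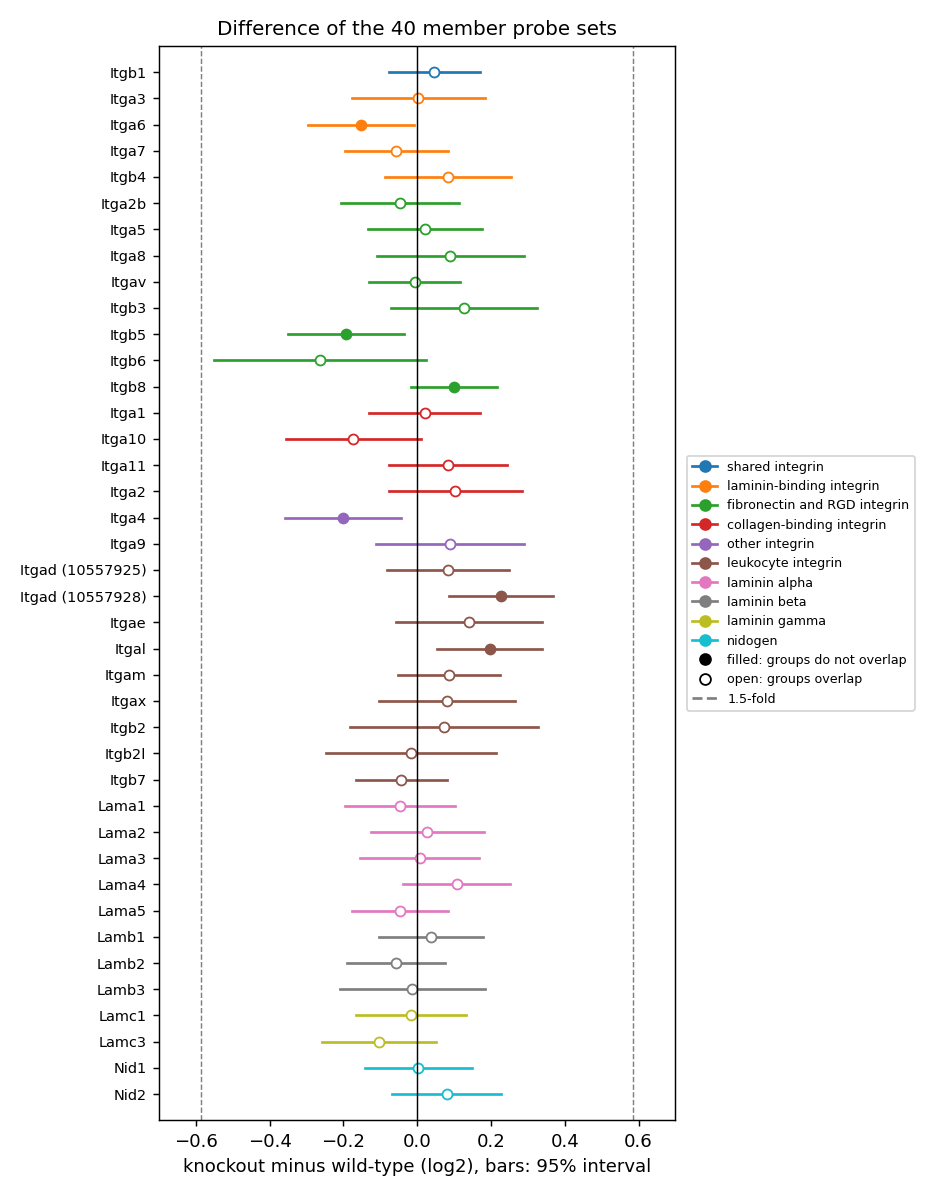
Log2 difference (knockout minus wild-type, horizontal axis) of each of the 40 member probe sets with its 95% interval, coloured by role. Filled points mark the 6 probe sets whose genotypes do not overlap, and all intervals lie inside the dashed lines at 1.5-fold.

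Itgb1, the beta chain shared by most matrix-binding integrins, had nearly the same signal in both genotypes. It read 10.52, 10.43 and 10.51 in the knockout arrays, against 10.44, 10.45 and 10.43 in the wild-type arrays. The difference was 0.05 (SE 0.05, 95% interval -0.08 to 0.17, adjusted p = 0.737), and the wild-type values lay within the knockout range.

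Among the chains that form laminin receptors, Itga6 had separate groups. Itga6, which pairs with Itgb1 or, in hemidesmosomes, with Itgb4, read 9.58, 9.49 and 9.53 in the knockout arrays, against 9.69, 9.60 and 9.77 in the wild-type arrays. Every knockout value lay below every wild-type value, by as little as 0.02 between the nearest arrays. The difference was -0.15 (SE 0.06, 95% interval -0.30 to -0.01, adjusted p = 0.379), or 1.11-fold lower, and between -0.20 and -0.11 over the alternatives tried. Its hemidesmosome partner Itgb4 read 7.90, 8.11 and 8.12 in the knockout arrays, against 8.04, 7.92 and 7.92 in the wild-type arrays, and these values overlapped (difference 0.08, SE 0.08). Itga3, an epithelial laminin receptor chain, read 8.19, 8.43 and 8.24 in the knockout arrays, against 8.21, 8.26 and 8.38 in the wild-type arrays. Its group means agreed to within 0.01 (difference 0.003, 95% interval -0.18 to 0.18), and the difference was -0.12 with the Y-linked covariate. Itga7, the laminin receptor chain of muscle that glial cells also use, read 7.63, 7.76 and 7.72 in the knockout arrays, against 7.70, 7.76 and 7.82 in the wild-type arrays, and overlapped too (difference -0.06, SE 0.06).

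The chains of receptors for fibronectin and other ligands with an arginine-glycine-aspartate (RGD) motif held a pair with separate groups in opposite directions, Itgb5 and Itgb8. Both pair with the alpha chain Itgav. Itgb5, the beta chain of a vitronectin receptor, read 9.46, 9.68 and 9.51 in the knockout arrays, against 9.79, 9.72 and 9.72 in the wild-type arrays. The 3 knockout values were all lower, with knockout replicate 2 close to the wild-type range, and the difference was -0.19 (SE 0.07, 95% interval -0.35 to -0.04, adjusted p = 0.344). Itgb8, whose receptor activates latent TGF-beta, read 11.17, 11.17 and 11.21 in the knockout arrays, against 11.08, 11.07 and 11.10 in the wild-type arrays. All 3 knockout values were higher, with SDs of 0.02 in both genotypes, and the difference was 0.10 (SE 0.05, 95% interval -0.02 to 0.22, adjusted p = 0.451). Itgav itself read 9.72, 9.66 and 9.68 in the knockout arrays, against 9.65, 9.70 and 9.73 in the wild-type arrays, with a difference of -0.01 (95% interval -0.13 to 0.12). Whether Itgb5 and Itgb8 differ from each other in their response was not tested.

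The remaining RGD class overlapped between genotypes. Itga8, the hair cell alpha chain named above, read 9.08, 8.81 and 9.0 in the knockout arrays, against 8.89, 8.75 and 8.98 in the wild-type arrays. Its difference was 0.09 (SE 0.09, 95% interval -0.11 to 0.29), and replicate 2 was the lowest of its group in both genotypes. Itgb6, an epithelial partner of Itgav that also activates latent TGF-beta, had the largest difference in size of all members but a dim signal. It read 5.46, 5.26 and 5.15 in the knockout arrays, against 5.72, 5.67 and 5.27 in the wild-type arrays, all below the 5.99 of the olfactory receptor guide. The difference was -0.26 (SE 0.13, adjusted p = 0.424), and 0.17 with the Y-linked covariate. Itgb3, the beta chain of a receptor of platelets, osteoclasts and vessels, read 6.97, 6.86 and 7.01 in the knockout arrays, against 6.69, 6.77 and 7.0 in the wild-type arrays. Its difference of 0.13 (SE 0.09) was -0.12 with that covariate. Itga5, the fibronectin receptor chain, and Itga2b, the platelet alpha chain, differed by 0.02 and -0.05, and Itga5 by -0.08 with that covariate.

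Itga4, which binds VCAM1 and fibronectin on leukocytes and other migrating cells, was the third chain with all knockout values lower. It read 6.95, 6.72 and 6.85 in the knockout arrays, against 7.06, 7.0 and 7.06 in the wild-type arrays. The difference was -0.20 (SE 0.07, 95% interval -0.36 to -0.04, adjusted p = 0.332), or 1.15-fold lower, and between -0.26 and -0.14 over the alternatives tried. Itga9, its closest relative among the alpha chains and a receptor for tenascin C, differed by 0.09 (SE 0.09), with overlapping groups and a value of 0.37 with the Y-linked covariate (adjusted p = 0.908).

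The upstream sequence of 3 members with separate groups and signals above the dim range is shown here to give their genomic context. Itga6 and Itgal also had separate groups and signals above that range, but no upstream sequence was available for them. Each window holds the 250 bases before the RefSeq gene start on GRCm38.p6, from 5′ to 3′ on the gene's strand. Capitals mark GGGCGG, the core of the GC box, read on either strand (CCGCCC on the printed strand). The windows are chr2:79255176-79255425 on the plus strand for Itga4, chr16:33829415-33829664 on the plus strand for Itgb5 and chr12:119238277-119238526 on the minus strand for Itgb8.
Itga4: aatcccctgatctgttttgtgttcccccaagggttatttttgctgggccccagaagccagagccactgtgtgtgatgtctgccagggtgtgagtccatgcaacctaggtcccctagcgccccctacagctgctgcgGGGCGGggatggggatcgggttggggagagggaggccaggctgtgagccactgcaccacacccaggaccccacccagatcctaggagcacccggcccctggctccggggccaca
Itgb5: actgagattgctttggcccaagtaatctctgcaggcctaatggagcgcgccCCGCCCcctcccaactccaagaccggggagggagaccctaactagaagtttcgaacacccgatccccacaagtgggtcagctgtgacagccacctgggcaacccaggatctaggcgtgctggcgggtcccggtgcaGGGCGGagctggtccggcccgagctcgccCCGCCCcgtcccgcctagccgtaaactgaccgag
Itgb8: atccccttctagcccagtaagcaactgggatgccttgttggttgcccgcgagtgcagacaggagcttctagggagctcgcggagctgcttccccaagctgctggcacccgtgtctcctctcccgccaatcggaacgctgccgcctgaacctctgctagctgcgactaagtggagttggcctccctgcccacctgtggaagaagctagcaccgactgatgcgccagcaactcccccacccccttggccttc
The letters GGGCGG occur 1 time in the Itga4 window, 3 times in the Itgb5 window and 0 times in the Itgb8 window. They occur in 10 of 28 windows of 25 member genes and in 32.7% of all 32851 windows of the same length. The windows hold 6 CpG dinucleotides for Itga4, 18 for Itgb5 and 12 for Itgb8, against a median of 6 over all windows. These counts describe the letters and carry no statement on transcription in these samples.

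**Figure D2:**
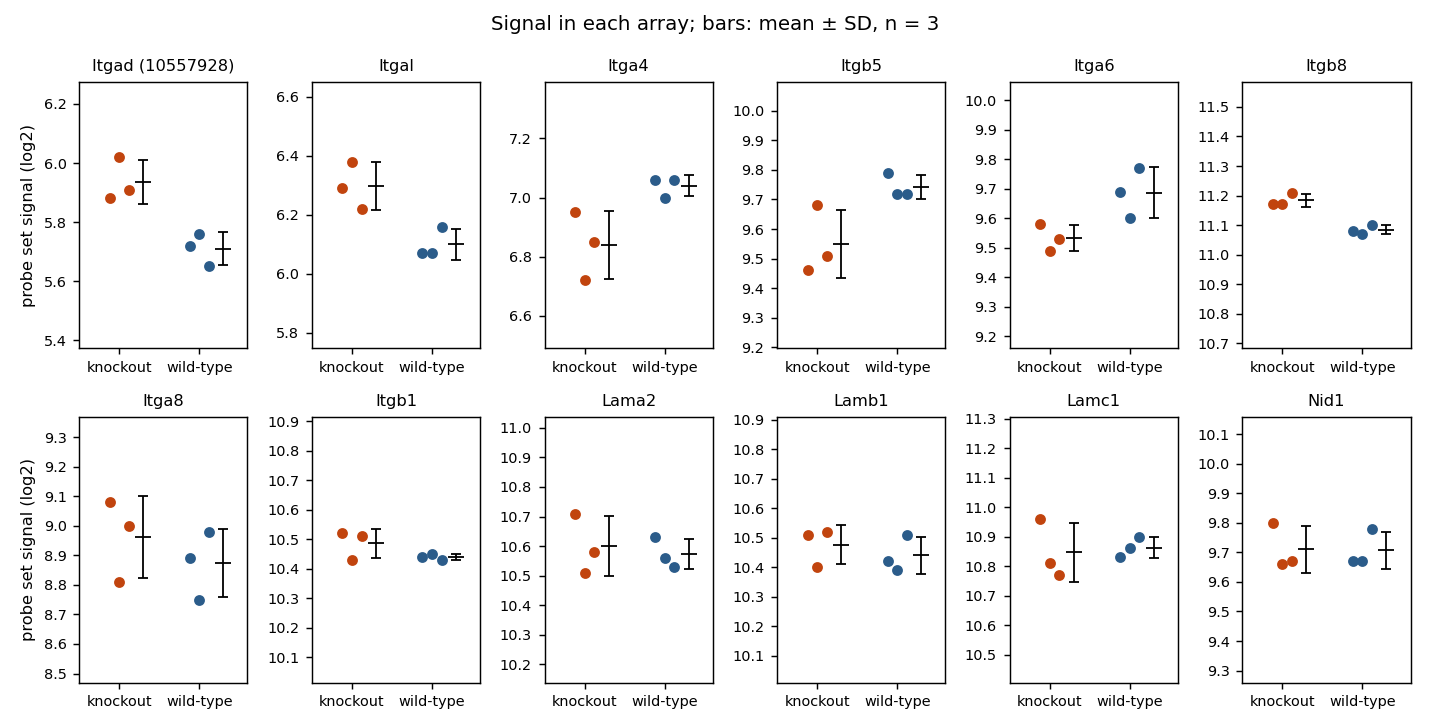
Log2 probe set signal in each array (points), with knockout left of wild-type, and the mean ± SD (n = 3 each) beside the points. The upper row shows the 6 probe sets whose genotypes do not overlap and the lower row 6 members of known role whose genotypes do, each axis spanning the same log2 range.

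Most of the leukocyte class had higher values in the knockout. Of its 9 probe sets 7 were higher and 2 lower, with a median of 0.08, and 0 were called. A mean level in the dim range was found for 3 of them, Itgad probe set 10557928, Itgae and Itgax. With the Y-linked covariate the differences of both Itgad probe sets, Itgal and Itgam were above 0 and those of the other five below. Itgad, an alpha chain of macrophages, has 2 probe sets that share an annotated transcript. Its probe set 10557928 read 5.88, 6.02 and 5.91 in the knockout arrays, against 5.72, 5.76 and 5.65 in the wild-type arrays. The groups were separate, and the difference was 0.23 (SE 0.06, adjusted p = 0.261), but the mean level of 5.82 lay in the dim range. The other probe set, 10557925, differed by 0.08 (SE 0.07) with overlapping groups. Itgal, the alpha chain of the lymphocyte adhesion receptor LFA-1, read 6.29, 6.38 and 6.22 in the knockout arrays, against 6.07, 6.07 and 6.16 in the wild-type arrays. These groups were separate too (difference 0.20, SE 0.06, adjusted p = 0.309). Itgb2, the beta chain that Itgal and Itgad need, differed by 0.07 (SE 0.11), and its groups overlapped. Its difference was -0.31 with the Y-linked covariate (adjusted p = 0.908) and -0.06 without wild-type replicate 1.

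Other leukocyte chains overlapped as well. Itgam, the alpha chain of the complement receptor Mac-1, read 6.30, 6.18 and 6.16 in the knockout arrays, against 6.17, 6.09 and 6.12 in the wild-type arrays. Itgae, which binds E-cadherin, read 5.26, 5.34 and 5.35 in the knockout arrays, against 4.98, 5.31 and 5.24 in the wild-type arrays, and its difference of 0.14 was -0.07 with the Y-linked covariate. Itgax and Itgb7 differed by 0.08 and -0.04, and Itgax by -0.01 with that covariate. Dim genes in general lay higher in the knockout, with a median difference of 0.07 in level decile 3 and 0.05 in decile 4, where 3 and 10 members fall. Among 9 measured macrophage and leukocyte markers, 5 were higher and 4 lower with a median of 0.01, and Aif1 was the 1 marker in the dim range. Their mean level was 7.03 to 7.19 in the knockout arrays and 7.11 to 7.12 in the wild-type arrays. Their part in the integrin values was not tested.

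Collagen-binding chains did not separate the genotypes. Itga10, a chain of cartilage, read 8.29, 8.21 and 8.0 in the knockout arrays, against 8.35, 8.28 and 8.39 in the wild-type arrays, with overlap at 8.28 to 8.29. The difference was -0.17 (SE 0.08, 95% interval -0.36 to 0.01, adjusted p = 0.415), and it was -0.09 to -0.24 with 1 array left out. Itga2, a collagen receptor chain of epithelia and platelets, read 6.49, 6.34 and 6.63 in the knockout arrays, against 6.41, 6.32 and 6.42 in the wild-type arrays. Itga11, a collagen receptor chain of fibroblasts, read 6.23, 6.35 and 6.32 in the knockout arrays, against 6.20, 6.33 and 6.12 in the wild-type arrays. Their differences were 0.10 (SE 0.08) and 0.08 (SE 0.07), and Itga1 differed by 0.02 (-0.04 with the Y-linked covariate).

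Laminin chains differed by -0.10 to 0.11, and 0 of 10 had separate groups, against 17.8% of all probe sets. Integrin chains ran from -0.26 to 0.23, but over 28 probe sets. Of these, 4 were in the dim range, against 0 of the laminin chains, and both ends of the integrin range (Itgb6 and Itgad probe set 10557928) were dim. Lama2, the alpha chain of muscle and Schwann cell basement membranes, read 10.71, 10.51 and 10.58 in the knockout arrays, against 10.63, 10.56 and 10.53 in the wild-type arrays. Lama4, an alpha chain of blood vessels and nerve, had the largest positive laminin difference, 0.11 (SE 0.06, 95% interval -0.04 to 0.25, adjusted p = 0.508). It read 9.52, 9.38 and 9.42 in the knockout arrays, against 9.41, 9.27 and 9.32 in the wild-type arrays, and the lowest knockout value lay below the highest wild-type value. Lama5, an alpha chain of epithelia and vessels, read 7.89, 7.93 and 7.89 in the knockout arrays, against 7.89, 7.94 and 8.02 in the wild-type arrays. Lama1 and Lama3 differed by -0.05 and 0.01, and Lama3 by -0.11 with the Y-linked covariate.

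The beta and gamma chains, which most laminin trimers share, were as close between genotypes. Lamb1 read 10.51, 10.40 and 10.52 in the knockout arrays, against 10.42, 10.39 and 10.51 in the wild-type arrays (difference 0.04, 95% interval -0.10 to 0.18, and -0.04 with the Y-linked covariate). Lamb2, the beta chain of synaptic and renal basement membranes, read 9.61, 9.56 and 9.51 in the knockout arrays, against 9.60, 9.57 and 9.68 in the wild-type arrays (difference -0.06). Lamc1, the gamma chain of nearly all basement membrane laminins, read 10.96, 10.81 and 10.77 in the knockout arrays, against 10.83, 10.86 and 10.90 in the wild-type arrays. The wild-type values lay inside the knockout range, and the difference was -0.02 (95% interval -0.17 to 0.13, adjusted p = 0.933). Lamc3, a gamma chain with a narrower distribution, read 8.18, 8.12 and 8.01 in the knockout arrays, against 8.29, 8.14 and 8.19 in the wild-type arrays. It had the lowest laminin difference, -0.10 (SE 0.07), which was 0.03 with the Y-linked covariate. Lamb3, a chain of the epidermal laminin-332, differed by -0.01.

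Both nidogens overlapped between genotypes. Nid1 read 9.80, 9.66 and 9.67 in the knockout arrays, against 9.67, 9.67 and 9.78 in the wild-type arrays, with a difference of 0.003 (SE 0.06, 95% interval -0.14 to 0.15) that was -0.04 with the Y-linked covariate. Nid2 read 7.96, 7.83 and 7.86 in the knockout arrays, against 7.71, 7.85 and 7.85 in the wild-type arrays, where wild-type replicate 1 was the lowest. Its difference was 0.08 (SE 0.07, 95% interval -0.07 to 0.23).

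Signal level and difference went together across the whole table. Bright probe sets lay slightly lower in the knockout, with a median of -0.04 in level decile 10, and dim ones slightly higher. Of the 22 members in the upper 5 deciles, 12 were higher and 10 lower with a median of 0.003, whereas 72.1% of all probe sets at those levels were lower and their median was -0.04. Of the 18 members in the lower 5 deciles, 12 were higher and 6 lower, where 36.1% of all probe sets were lower. Relative to the median of its own decile, Itgb8 differed by 0.14, Itgb5 by -0.15, Itga6 by -0.11 and Itga4 by -0.21. Itgal and Itgad probe set 10557928 differed from theirs by 0.14 and 0.16. No test was made of these counts.

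**Figure D3:**
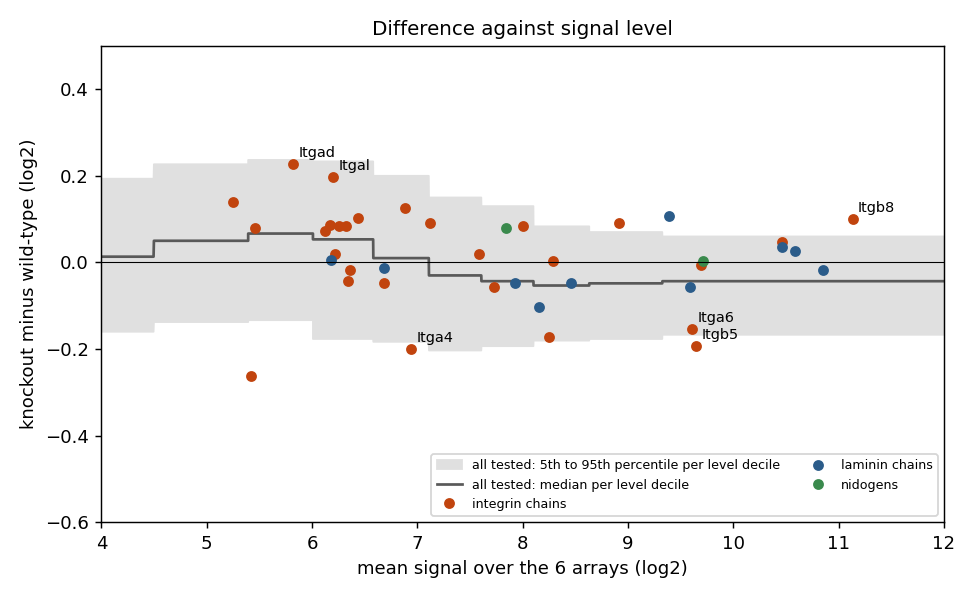
Log2 difference (knockout minus wild-type) against mean log2 signal over the 6 arrays for each member. The line and the shaded band give the median and the 5th to 95th percentile of all tested probe sets per level decile. Labels mark the 6 probe sets with separate groups, and the median line passes from above 0 at dim signals to below 0 at bright ones.

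Of the 7 members on chromosome 2, which carries Pjvk, 6 were lower and 1 was higher in the knockout. In the order of protein-coding genes, Itga4 lies 10, Itgav 25, Itga6 40 and Itgb6 102 genes from Pjvk. The differences of these 4 were -0.20, -0.01, -0.15 and -0.26. Farther away, Lamc3 at 274 genes differed by -0.10, Itga8 at 516 by 0.09 and Lama5 at 1165 by -0.05. Of 221 other probe sets within 100 genes of Pjvk, 115 were lower and 104 higher, with a median of -0.01. Separate groups were met in 20.8% of them, and 1 was called, that of Ttn, which lies 3 genes from Pjvk and had a difference of -0.95. The members near Pjvk were not tested against these neighbours. On the other chromosomes 23 members were higher and 10 lower, with a median of 0.04. The part that the place near Pjvk has in the values of Itga4 and Itga6 was not tested.

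**Figure D4:**
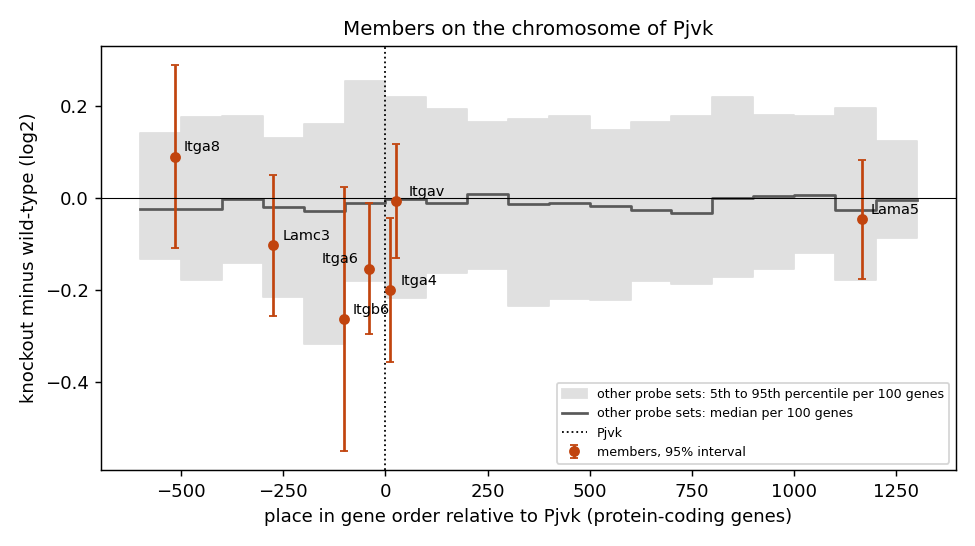
Log2 difference (knockout minus wild-type) with 95% interval of the 7 members on the chromosome of Pjvk, by their place in the order of protein-coding genes relative to Pjvk at 0. The line and band give the median and the 5th to 95th percentile of other probe sets per 100 genes, and Itga8 is the 1 member with a difference above 0.

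Partners of these receptors in adhesion and basement membranes were counted from lists of other genes, and 0 of them were called in any list. Adhesion adaptors and kinases, which tie integrin tails to actin, had 21 members lower and 6 higher of 27 measured, with a median of -0.05 and with 7 separate groups below and 1 above. Their mean level was 8.46 to 8.51 in the knockout arrays and 8.52 to 8.55 in the wild-type arrays. Groups were separate below for 11.3% and above for 6.51% of all probe sets, and below for 2000 and above for 317 of the 10895 in the upper 5 level deciles, where most were lower as well. Tns1, which encodes the adaptor tensin 1, read 9.38, 9.66 and 9.39 in the knockout arrays, against 9.78, 9.93 and 9.77 in the wild-type arrays. Its difference was -0.35 (SE 0.09, adjusted p = 0.222). Actn1, the actin cross-linker alpha-actinin 1, differed by -0.24 (SE 0.07, adjusted p = 0.296), and Itgb1bp1, which binds the tail of the Itgb1 chain, by -0.18 (SE 0.07, adjusted p = 0.355). Fermt1, an epithelial kindlin, differed by 0.21 (SE 0.09) in the dim range. The groups of Tns1, Actn1 and Itgb1bp1 were separate.

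Integrin ligands had 11 members higher and 6 lower of 17 measured, with a median of 0.05. Edil3, an RGD-bearing ligand of Itgav receptors, read 8.65, 8.44 and 8.40 in the knockout arrays, against 8.79, 8.73 and 8.83 in the wild-type arrays (difference -0.29, SE 0.08, adjusted p = 0.242). Npnt, which encodes nephronectin, a ligand of the Itga8 receptor, read 8.63, 8.51 and 8.41 in the knockout arrays, against 8.33, 8.23 and 8.37 in the wild-type arrays (difference 0.21, SE 0.07, adjusted p = 0.334). Both had separate groups, in opposite directions. Tnc and Fn1, which encode tenascin C and fibronectin, differed by 0.16 (SE 0.10) and 0.10 (SE 0.07), and Fn1 by -0.05 with the Y-linked covariate.

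Other basement membrane genes had 12 members higher and 10 lower of 22 measured, with a median of 0.02. Frem2, a protein of the Fraser complex that anchors epithelia to their basement membrane, read 8.04, 7.97 and 7.93 in the knockout arrays, against 7.82, 7.75 and 7.69 in the wild-type arrays. Its difference was 0.23 (SE 0.06, adjusted p = 0.246). Agrn, the heparan sulfate proteoglycan agrin, had the other sign at -0.19 (SE 0.06, adjusted p = 0.306), and the groups of both genes were separate. Lox and Col4a4 differed by -0.19 (SE 0.09) and 0.15 (SE 0.08), and Lox by 0.03 with the Y-linked covariate. Other laminin receptors and their linkers, among them the dystroglycan complex, had 9 members lower and 3 higher of 13 measured, with a median of -0.03, and the difference of Sgce was 0. Sgca, a sarcoglycan of muscle in the dim range, differed by 0.15 (SE 0.06), and Sgcd, Sgcb and Pomt2 by -0.07, 0.06 and -0.06.

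Most markers of vessel cells lay lower in the knockout. Lower values were also met in 54.1% of all probe sets and in 72.1% of those in the upper 5 level deciles. Of 10 endothelial markers 9 were lower and 1 higher, with 0 called and a median of -0.09. Their mean level was 7.79 to 7.91 in the knockout arrays and 7.93 to 7.95 in the wild-type arrays, without overlap, and none lay in the dim range. Of 10 smooth muscle and pericyte markers 8 were lower and 2 higher, with 0 called and a median of -0.11. Their mean level was 7.56 to 7.66 in the knockout arrays and 7.68 to 7.77 in the wild-type arrays, also without overlap, and Cnn1 was in the dim range. Of the laminin chains described above as chains of vessels, Lama4 differed by 0.11 (95% interval -0.04 to 0.25) and Lama5 by -0.05. The groups of both overlapped. In these bulk samples fewer cells of a type and less RNA per cell cannot be told apart, and the part of vessel cells in the integrin values was not tested.

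Of the remaining cell types, Schwann cell and myelin markers had 4 members higher and 2 lower of 7 measured and Pmp22 at a difference of 0, with a median of 0.02, beside Lama2, Itgb4 and Itga7, which Schwann cells also use. Skeletal muscle markers had 9 of 10 members higher, with a median of 0.17, and 4 of them (Myh4, Myh2, Myh1 and Mylpf) in the dim range. Ttn, the sarcomere protein titin and the 1 lower member, is the gene near Pjvk named above and was called at -0.95 (SE 0.06, adjusted p = 0.00228). Their mean level was 6.16 to 6.34 in the knockout arrays and 6.12 to 6.22 in the wild-type arrays. Bone markers were higher in 6 of 6, with a median of 0.15 and a mean level of 8.80, 8.30 and 8.43 in the knockout arrays, against 8.31, 8.30 and 8.47 in the wild-type arrays. Knockout replicate 1 thus stood apart for bone. The mean of integrin, laminin and nidogen probe sets deviated from that of all arrays by 0.02 in that array. In wild-type replicate 1 it deviated by -0.03, the largest deviation in size. The integrin mean alone deviated by 0.009 in each knockout array. All 3 measured platelet markers were higher, with a median of 0.15, and all lay in the dim range. The medians were 0 for hair cell markers and 0.10 for supporting cell markers. They were -0.003 for fibroblast and fibrocyte markers, -0.01 for neuron markers and -0.07 for melanocyte markers. Of 10 supporting cell markers 7 were higher and 3 lower, with 0 called. Their mean level was 8.82 to 8.89 in the knockout arrays and 8.71 to 8.77 in the wild-type arrays, without overlap. Among 6 melanocyte markers Dct, a melanin synthesis enzyme, was called at -1.86 (SE 0.17, adjusted p = 0.0127). The mean level of that list was 6.30 to 6.49 in the knockout arrays and 6.68 to 6.82 in the wild-type arrays, without overlap. That mean includes Dct, the 1 marker of the list with separate groups. Of the 6 markers 4 were lower and 2 higher, with Tyr at -0.31, Pmel at 0.14 and Tyrp1 at 0.09. The part of these cell types in the values of the members was not tested.

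**Figure D5:**
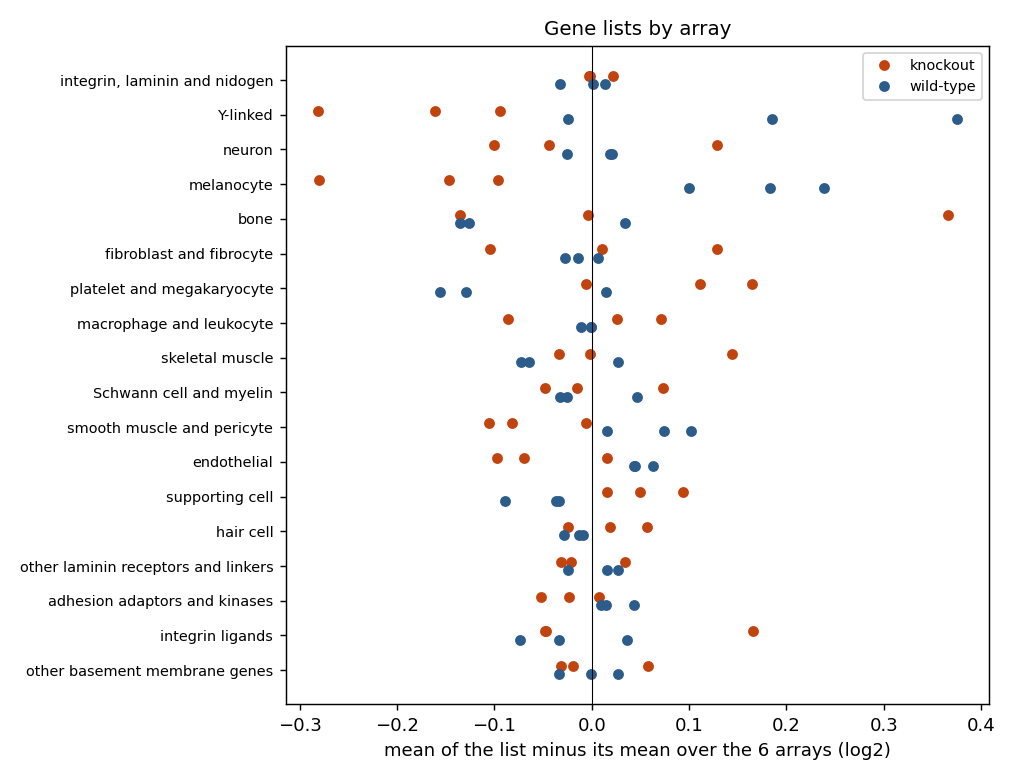
Mean log2 signal of each gene list in each array, as the deviation from its mean over the 6 arrays, for knockout and wild-type arrays. The members' means lie within 0.04 of 0 in every array. The means of the adhesion adaptor, supporting cell, endothelial, smooth muscle, melanocyte and Y-linked lists do not overlap between genotypes. For the adhesion adaptor list the nearest arrays almost touch, with means of 8.515 in knockout 2 and 8.517 in wild-type 2. The melanocyte list includes Dct, its 1 gene with separate groups.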

How the data were processed

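Values were the deposited log2 signals of 35557 probe sets on 6 Affymetrix mouse gene arrays. Per the submitters' processing notes the Affymetrix Expression Console was used, and how signals were summarized and normalized is not given in the sources used here. Gene names came from the platform annotation, and 1621 with several symbols and 12147 without a listing were not named. No pair of arrays held identical values.

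The genotypes were compared by limma 3.58.1 (lmFit and eBayes, R 4.3.3) on the 21789 probe sets with a single symbol, with no covariate, and called at a Benjamini-Hochberg adjusted p under 0.05. Intervals used 4 residual and 4.59 prior degrees of freedom. The number of arrays limits the precision. An exact permutation test of 3 against 3 cannot give a two-sided p below 0.1 and was not used. The steps were tested on simulated data, where 38 of 50 probe sets with a log2 change of 0.5 and 50 of 50 with a change of 1 were recovered. There were 12 false calls. The simulated noise was drawn independently for every probe set and array, with SDs shuffled over probe sets. Shifts that probe sets share within an array were thus absent, and these counts need not hold for the real arrays. Changes below 0.5, such as those of all members here, were not simulated.

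The members, the lists and the naming rule were chosen with earlier results of these data known. Per-array values were given for the 16 members with the smallest p and for members of known role, and up to 4 genes with the smallest p were named per pathway list. Genes with several probe sets entered lists with the brightest. Gene order and upstream sequences came from RefSeq on GRCm38.p6. All 39 member genes matched its gene table and 25 had a sequence. Lists use the platform's symbols.

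Alternatives were filters on dim probe sets, quantile, cyclic loess and median scaling, an intensity trend with robust priors, other sets of probe sets, a replicate block, the Y-linked level as covariate, and leaving out each array.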

Additional observations from a re-analysis of the deposited data

How the results depend on the processing

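No member was called under any of the 17 alternatives, and the smallest adjusted p of a member over them was 0.167 (limma with an intensity trend and robust priors). Over all probe sets the calls, 7 lower and 0 higher in the main analysis, were 19 lower and 2 higher at or above the 25th percentile of level, 40 and 3 at or above the median, 18 and 0 when centred on array medians, and 87 and 9 with an intensity trend. They were 1 and 0 over all probe sets of the table and 0 and 0 with the Y-linked covariate, and with 1 array left out from 2 to 6 were lower and at most 1 higher. The member median was 0.043 with quantile normalization (0.003 over all probe sets), -0.038 with the Y-linked covariate, and -0.0108 to 0.0375 with 1 array left out. Separate groups were met for 3 members at or above the median level, where 22 members were tested, and for 9 to 13 with 1 array left out, where fewer arrays per group make separation easier (24.6% to 33.4% of all probe sets). No pairing by replicate number was seen (correlations of deviations 0.08, 0.02 and -0.01 for numbers 1, 2 and 3). Unlike numbers gave -0.11 to 0.10, and with so few arrays such values cannot exclude a pairing. With the numbers as a replicate block 0 members and 1 probe set in all were called. With the block or the covariate, separate groups have no value. Of 657 member values under the alternatives, 46 had the other sign and 25 moved by over 1 SD between replicates, 20 of these with the Y-linked covariate, and the cause was not tested. The sign was the same throughout for 22 of 40 members, among them Itga4, Itga6, Itgb5, Itgb8, Itgal and both Itgad probe sets.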
